A study of Mus musculus with 34 samples.

Results

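The FGF signalling genes described here are 4 ligands (Fgf4, Fgf8, Fgf15 and Fgf17) and the 4 receptors with a kinase domain (Fgfr1, Fgfr2, Fgfr3 and Fgfr4), 8 genes chosen by name. They were followed in 34 RNA-seq libraries of mouse embryonic stem (ES) cells of strain 129/Ola, among 48709 genes counted in a first set of 16 libraries and 22018 genes counted in a second set of 18 libraries. The study deleted the Mta1, Mta2 and Mta3 genes, whose products hold together the nucleosome remodelling and deacetylase (NuRD) complex. The first set compares Control cells with Mta123KO cells, which lack all 3 MTA genes, each labelled either 2iL (medium with inhibitors of MEK and GSK3 plus LIF, which keeps ES cells naive) or 48 h in N2B27 medium with neither inhibitors nor LIF, with 4 libraries in each of the 4 groups. The second set compares each single mutant with its parent in 2iL, with 3 libraries in each of 6 groups: Mta1_del_del with Mta1_flox_flox, Mta2_KO with Mta2_WT, and Mta3_del_del with Mta3_flox_flox. The Control line carried a deleted Mta1 allele beside an intact one, and floxed Mta3 alleles. Mta123KO cells were made by removing Mta2 with CRISPR from cells already lacking Mta1 and then deleting Mta3 with Cre, and Mta2_KO was a single line. The replicate labels 1_1, 1_2, 2_1 and 2_2 of the first set were read as 2 lines of each genotype with 2 libraries each, so that libraries of 1 line are not independent cultures of separate clones and p-values over 4 libraries are too small to that extent. In the second set nothing in the labels says that replicates came from separate cultures, so p-values there measure the spread between these libraries, which may be technical.

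Fibroblast growth factors bind receptor tyrosine kinases at the cell surface together with heparan sulphate, and the receptors pass the signal through the adaptor Frs2 to RAS, RAF, MEK and ERK. In ES cells and in the early embryo, Fgf4 made by pluripotent cells is the main ligand, and the ERK signal it sets off through Fgfr1 and Fgfr2 lets cells leave naive pluripotency and form primitive endoderm. Fgfr2 is also the receptor through which trophectoderm, the outer layer of the blastocyst, responds to Fgf4. Medium with a MEK inhibitor blocks this pathway below the receptors.

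The culture labels of the first set go against its marker genes, and the names of the deposited tables give the opposite culture for all 16 libraries. The summed level of 11 naive pluripotency genes (Nanog, Esrrb, Klf4 and others) was 173 to 264 CPM (counts scaled to a common library total after TMM adjustment of each total) in the Control libraries labelled 2iL and 3893 to 4309 CPM in those labelled 48 h. In the parent libraries of the second set, all labelled 2iL, it was 3428 to 6176 CPM. The summed level of 8 formative genes, which are switched on as cells leave the naive state, was 1432 to 2052 CPM in Control libraries labelled 2iL, 147 to 184 CPM in those labelled 48 h, and 172 to 347 CPM in the parents of the second set. The labels are kept below as they stand, written as "labelled 2iL" and "labelled 48 h". If they were exchanged, the 2 genotype comparisons would change places, and every culture difference and every interaction would change sign.

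Depth was 37855790 to 57602285 counts per library in the first set and 13105820 to 40613585 in the second, so that 1 count was worth 0.0176 to 0.0263 CPM and 0.0260 to 0.0729 CPM. Mta2 stood at 4.71 to 10.4 CPM in the 8 Mta123KO libraries and at 111 to 201 CPM in the 8 Control libraries. It was 9.23 to 11.9 CPM in Mta2_KO and 231 to 247 CPM in Mta2_WT. Mta3 was 9.65 to 12.8 CPM in Mta3_del_del and 60.6 to 70.4 CPM in Mta3_flox_flox, and Mta1 was 38.5 to 48.0 CPM in Mta1_del_del and 69.0 to 105 CPM in Mta1_flox_flox. In Mta123KO libraries Mta1 remained at 15.5 to 30.0 CPM and Mta3 at 9.51 to 23.8 CPM. Counts per gene do not show which exons these reads came from.

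Fgf4 and Fgf15 are neighbours on mouse chromosome 7 (GRCm38, plus strand, Fgf4 at 144847367 to 144865243 and Fgf15 at 144896531 to 144900953), with Fgf3 just ahead of them at 144838083 to 144844436. Fgfr2 is on the minus strand of the same chromosome, where its annotated model spans 130162451 to 133123350. These spans cover every annotated transcript of a gene. The start sites used for the sequences printed below, 130266808 for Fgfr2 and 144861386 for Fgf4, lie inside them, that of Fgfr2 far from the upstream end. Fgfr1 is on chromosome 8 (25513654 to 25575718), Fgfr3 on chromosome 5 (33721674 to 33737068), Fgfr4 on chromosome 13 (55152640 to 55168759), Fgf8 on chromosome 19 (45736798 to 45742915) and Fgf17 on chromosome 14 (70636203 to 70642268). Some exons are shared with other genes. On the same strand these are 314 bases of Fgfr2 with Ctbp2. On the opposite strand they are 761 bases of Fgf15 with Gm26793 and 26 with Gm39119. Also there, Fgfr1 shares 164 bases with Gm16159 and Fgfr3 shares 998 bases with G630022F23Rik. Whether counting used strand is not given in the sources used here, so reads in those stretches could not be assigned with certainty.

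Fgf4, Fgfr2 and Fgfr4 were called in 5 comparisons each, and between Control and Mta123KO cells Fgf4 moved in the opposite direction to both receptors. The sequences ahead of the start sites of Fgf4 and Fgfr2 are shown for that reason, and that of Fgfr4 is not printed because 178 bases of its window lie in annotated exon. They are 250 bases of RefSeq sequence on GRCm38.p6, printed 5′ to 3′ on the gene's strand and ending at the base before the start. The Fgf4 window is chr7:144861136-144861385 on the plus strand, and the Fgfr2 window is chr7:130266809-130267058 on the minus strand. The Fgfr2 start in that table lies 545 bases upstream of the nearest transcript start in the GENCODE annotation. Capitals mark matches on either strand to GGGCGG (a GC box, found in 32.7% of 32851 such windows), CCAAT (33.8%), TATAAA (12.4%), TATATA (5.25%) and CACGTG (6.02%). TATATA and CACGTG read the same on both strands.
Fgf4: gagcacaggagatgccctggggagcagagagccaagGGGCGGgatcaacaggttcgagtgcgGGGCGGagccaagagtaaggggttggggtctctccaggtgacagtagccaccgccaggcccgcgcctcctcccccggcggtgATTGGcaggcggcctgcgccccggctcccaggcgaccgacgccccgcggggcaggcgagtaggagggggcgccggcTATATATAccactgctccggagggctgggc
Fgfr2: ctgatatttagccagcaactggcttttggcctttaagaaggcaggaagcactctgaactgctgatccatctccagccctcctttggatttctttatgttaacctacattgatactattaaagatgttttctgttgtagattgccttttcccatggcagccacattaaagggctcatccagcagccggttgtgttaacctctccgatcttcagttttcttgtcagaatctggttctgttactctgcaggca
The Fgf4 window was 71.2% G and C with an observed-to-expected CpG ratio of 0.675, and held 2 GC boxes, 1 CCAAT box on the minus strand and 2 overlapping TATATA matches. The Fgfr2 window was 44% G and C with a CpG ratio of 0.167 and held none of these letters. The median over all windows was 52.4% and 0.374.

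Compared per kilobase of annotated exon (RPKM), Fgf4 was the most abundant of the 8 genes in 9 of the 10 groups. In Control cells it stood at 31.9 ± 4.85 RPKM (SD, n = 4) in libraries labelled 2iL and at 71.4 ± 4.73 RPKM in those labelled 48 h. Fgfr1 came next at 10.1 ± 1.142 and 8.37 ± 1.24 RPKM, then Fgfr2 at 4.63 ± 0.229 and 2.60 ± 0.175 RPKM. The other 5 genes averaged at most 2.03 RPKM in both Control groups. In libraries labelled 48 h, Fgfr2 and Fgf17 were neighbours whose ranges overlapped (2.35 to 2.76 and 1.47 to 2.65 RPKM), while Fgf4, Fgfr1 and Fgfr2 were separate from each other. The exception was Mta123KO labelled 2iL, where the order was Fgfr2 at 15.3 ± 3.63 RPKM, Fgfr1 at 9.36 ± 2.54 RPKM and Fgf4 at 8.08 ± 4.76 RPKM, with ranges that overlapped between Fgfr2 and Fgfr1 and between Fgfr1 and Fgf4. These lengths count every annotated exon of a gene, and the Fgfr1 and Fgfr2 models (9875 and 10328 bases) hold many isoforms.

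Differences were tested with edgeR's quasi-likelihood test over all genes, and a gene was called at a Benjamini-Hochberg adjusted p under 0.05. Of the 8 members, 7 passed the filter on low counts in most comparisons. Fgf8 passed it only for the genotype comparison labelled 2iL and for the interaction. Between the culture labels, 6 of 7 members tested were called in Control cells, 2 higher and 4 lower in libraries labelled 48 h, where 58.5% of all genes tested were called (29.5% higher and 29% lower). In Mta123KO cells 4 of 7 were called, 2 higher and 2 lower, against 22.4% of all genes (12.4% higher and 10% lower). Between the genotypes, 4 of 8 members were called in libraries labelled 2iL, 2 higher and 2 lower in Mta123KO, against 51.3% of all genes (27.1% higher and 24.2% lower), and 6 of 7 in libraries labelled 48 h, 5 higher and 1 lower, against 50% of all genes (26.6% higher and 23.4% lower). The median log2 difference of the members was -0.04 labelled 2iL and 0.68 labelled 48 h, beside 0.01 over all genes in both. When the libraries of a line were summed, so that each line was 1 sample and n was 2 against 2, the calls between genotypes were Fgfr2 alone labelled 2iL and Fgf15 and Fgfr2 labelled 48 h, and 0 members were called between labels in Mta123KO cells, where edgeR then called 0 genes in all with 3568 at an unadjusted p under 0.05. Some of these shares lay near the background and others above it. The 8 genes were not tested as a set, and the results below are given gene by gene.

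**Figure D1:**
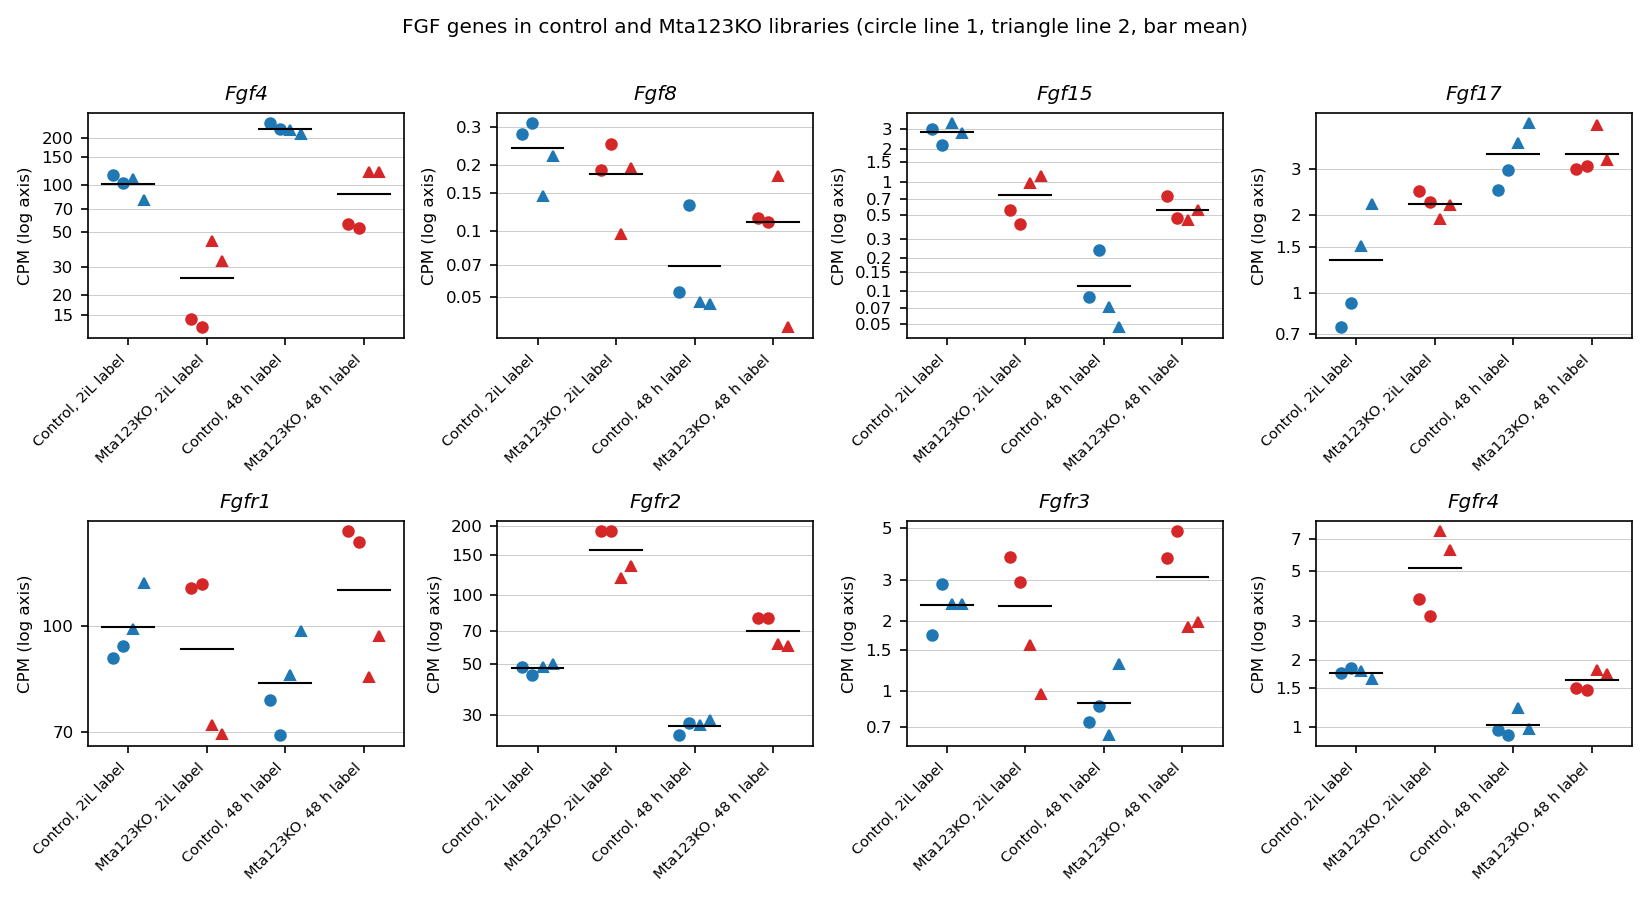
CPM of each of the 8 FGF genes (log axis) in the 16 libraries of Control (blue) and Mta123KO (red) cells, grouped by genotype and culture label, with circles for line 1, triangles for line 2 and bars for group means. Fgf4 was lower and Fgfr2 higher in all 4 Mta123KO libraries than in any Control library of the same label, and the 2 Mta123KO lines stood apart for both genes.

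Fgf4, the ligand through which ES cells signal to themselves, was lower in Mta123KO cells under both labels and higher in libraries labelled 48 h in both genotypes. In Control libraries labelled 2iL it stood at 116, 103, 109 and 80.1 CPM (replicates 1_1, 1_2, 2_1 and 2_2), and in Mta123KO libraries of that label at 14.01, 12.4, 43.8 and 33.0 CPM. The groups did not overlap, and line 1 of Mta123KO was lower than line 2 in both of its libraries. The fitted difference was -1.96 ± 0.38 on the log2 scale (SE, edgeR adjusted p = 0.0025), a 3.90-fold lower level in Mta123KO. In libraries labelled 48 h, Control cells had 248, 228, 225 and 211 CPM and Mta123KO cells 56.8, 53.4, 122 and 120.4 CPM. Again no library of one genotype reached the other, and again line 1 was the lower one. The difference there was -1.36 ± 0.27 log2 (edgeR adjusted p = 0.0028), 2.57-fold. Set against all 4 Control libraries, each Mta123KO line was called by itself, at -2.94 and -1.39 log2 for line 1 and line 2 labelled 2iL and at -2.04 and -0.90 log2 labelled 48 h. Between the labels Fgf4 was 2.26-fold higher in libraries labelled 48 h of Control cells (log2 difference 1.18 ± 0.10, edgeR adjusted p = 2.4e-06) and 3.41-fold higher in those of Mta123KO cells (1.77 ± 0.48, adjusted p = 0.029). The second of these calls was lost on leaving out any 1 of 5 libraries (Mta123KO labelled 2iL 1_1, 1_2 or 2_2, or labelled 48 h 2_1 or 2_2), with adjusted p of 0.051 to 0.070. Those fits were unpaired. With the replicate number as a block, this difference was 1.86 ± 0.10 log2 and was called (edgeR adjusted p = 1.7e-05). The genotype difference in Fgf4 was not shown to depend on the culture label (interaction 0.61 ± 0.50 log2, adjusted p = 0.42).

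Fgf15, the mouse counterpart of human FGF19, was the member whose genotype difference took opposite directions under the 2 labels. In libraries labelled 2iL it stood at 3.02, 2.14, 3.42 and 2.77 CPM in Control cells and at 0.552, 0.408, 0.971 and 1.12 CPM in Mta123KO cells. Labelled 48 h, it was 0.0881, 0.236, 0.0718 and 0.0466 CPM in Control cells, which is 5, 9, 3 and 2 counts, and 0.739, 0.462, 0.447 and 0.547 CPM in Mta123KO cells. The genotypes did not overlap under either label, but Control was the higher group in the first and the lower in the second. The differences were -1.88 ± 0.31 log2 (edgeR adjusted p = 0.0011) and 2.33 ± 0.44 log2 (adjusted p = 0.0021), and their difference, the interaction, was 4.22 ± 0.55 log2 (adjusted p = 5.4e-05). Across labels, Fgf15 fell in Control cells by 4.68 ± 0.35 log2 (25.7-fold, adjusted p = 6.8e-07) from the 2iL to the 48 h label, while in Mta123KO cells the groups overlapped (log2 difference -0.48 ± 0.35, adjusted p = 0.38). Fgf15 overlaps the opposite-strand gene Gm26793, which had at most 59 counts in any library of the first set. Gm26793 moved with it, at -1.92 ± 0.37 log2 between the genotypes labelled 2iL (adjusted p = 0.0023) and at -4.28 ± 0.36 log2 between labels in Control cells (adjusted p = 2.0e-06). Its interaction was 3.75 ± 0.63 log2 (adjusted p = 0.00053). Gm39119, also on the opposite strand with 26 shared bases, had an interaction of 2.87 ± 0.87 log2 (adjusted p = 0.026). Reads of these genes and Fgf15 may not be fully separated.

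Fgf17, a ligand of the Fgf8 subfamily, was higher in libraries labelled 48 h in both genotypes and was not called between genotypes. In Control libraries it was 0.739, 0.914, 1.51 and 2.19 CPM labelled 2iL and 2.48, 2.97, 3.76 and 4.47 CPM labelled 48 h (log2 difference 1.37 ± 0.32, edgeR adjusted p = 0.0033). In Mta123KO libraries it was 2.46, 2.24, 1.92 and 2.17 CPM and then 2.98, 3.06, 4.42 and 3.23 CPM (0.63 ± 0.17, adjusted p = 0.031). Both steps were without overlap, and in Control cells line 2 was above line 1 under both labels. The call in Mta123KO cells was lost without any 1 of 5 libraries (labelled 2iL 1_2, 2_1 or 2_2, labelled 48 h 2_1 or 2_2), with adjusted p of 0.056 to 0.075, and with spike-in scaling (0.59 log2, adjusted p = 0.093). It was kept with the replicate number as a block (0.62 log2, adjusted p = 0.024). Between genotypes, the difference was 0.73 ± 0.32 log2 labelled 2iL (adjusted p = 0.080) and 0.01 ± 0.22 log2 labelled 48 h (adjusted p = 0.97). Without Control labelled 2iL 2_2, the highest of its group, the first of these was 1.08 log2 and was called (adjusted p = 0.012), as was an interaction of -1.06 log2 (adjusted p = 0.043).

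Fgf8, an early embryonic ligand of mesoderm and neural tissue, was close to the limit of detection in every library. It had 7 to 15 counts in the Control libraries labelled 2iL (0.145 to 0.312 CPM) and 2 to 5 in those labelled 48 h (0.0466 to 0.131 CPM). Mta123KO libraries had 4 to 11 counts labelled 2iL and 2 to 8 labelled 48 h, so that both genotypes overlapped under each label. The genotype difference labelled 2iL was -0.36 ± 0.36 log2 (edgeR adjusted p = 0.43). The Control groups did not overlap between labels, but this comparison was below the count filter. Without the filter edgeR gave -1.76 ± 0.51 log2 (adjusted p = 0.011) and DESeq2 gave -1.81 ± 0.67 log2 (adjusted p = 0.016).

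Fgfr2 was higher in Mta123KO cells under both labels and lower in libraries labelled 48 h in both genotypes. In libraries labelled 2iL it stood at 48.3, 44.5, 48.6 and 50.0 CPM in Control cells and at 190.6, 190.5, 119 and 134 CPM in Mta123KO cells. In libraries labelled 48 h it stood at 24.3, 27.6, 27.0 and 28.5 CPM and at 79.4, 79.7, 61.1 and 59.7 CPM. Each Mta123KO library was above each Control library of the same label, the Control libraries lay close together, and line 1 of Mta123KO was above line 2 under both labels. The differences were 1.74 ± 0.16 log2 (3.35-fold, edgeR adjusted p = 3.9e-05) and 1.39 ± 0.12 log2 (2.62-fold, adjusted p = 2.5e-05). Fgfr2 was called in each line by itself, at 2.00 and 1.42 log2 labelled 2iL and 1.58 and 1.18 log2 labelled 48 h for lines 1 and 2. Between labels, Fgfr2 was lower in libraries labelled 48 h, by 0.82 ± 0.06 log2 in Control cells (1.77-fold, adjusted p = 1.1e-06) and by 1.18 ± 0.18 log2 in Mta123KO cells (2.27-fold, adjusted p = 0.0027). The 2 genotype differences were not shown to differ (interaction -0.34 ± 0.20 log2, adjusted p = 0.25). Ctbp2, which shares exon bases with Fgfr2, was not called between genotypes (0.33 ± 0.16 log2 labelled 2iL, adjusted p = 0.12, and -0.07 ± 0.11 log2 labelled 48 h, adjusted p = 0.61). Between labels Ctbp2 was called and moved in the same direction as Fgfr2, by -0.60 ± 0.06 log2 in Control cells (adjusted p = 1.4e-05) and by -1.0035 ± 0.19 log2 in Mta123KO cells (adjusted p = 0.0067). How far shared reads enter the Fgfr2 differences between labels was not tested.

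The 2 Mta123KO lines, which stood in opposite order in Fgf4 and Fgfr2, also stood apart in summed markers of trophectoderm, naive and formative cells. With 2 lines, any gene that differs between them follows 1 order or the other. The summed level of 8 trophectoderm markers was 17.1 to 21.2 CPM in Control libraries labelled 2iL. It was 475 and 515 CPM in line 1 and 110.5 and 121 CPM in line 2 of Mta123KO. With the 48 h label it was 73.4 to 94.0 CPM in Control cells, 814 and 862 CPM in line 1 and 185 and 199.8 CPM in line 2. All 8 were called higher in Mta123KO labelled 2iL, beside 27.1% of all genes. Of the 7 tested labelled 48 h, 5 were higher, beside 26.6% of all genes, and Tfap2c was lower (-0.58 log2, edgeR adjusted p = 0.019). None of the 8 was at 0 in any of the 16 libraries. Cdx2, a defining factor of trophectoderm, was 0.301 to 3.93 CPM in Mta123KO labelled 2iL and 0.280 to 0.745 CPM in Control cells, which overlap, and both genes are named here after their values were seen. Naive markers moved too, with summed levels of 457 to 595 CPM in Mta123KO against 173 to 264 CPM in Control labelled 2iL, and of 2027 to 2958 CPM against 3893 to 4309 CPM labelled 48 h. In Mta123KO they were 595 and 572 CPM in line 1 and 457 and 482 CPM in line 2 labelled 2iL. Labelled 48 h they were 2079 and 2027 CPM in line 1 and 2958 and 2948.5 CPM in line 2. Formative markers were 635 and 595 CPM in line 1 and 909 and 797 CPM in line 2 labelled 2iL. Labelled 48 h they were 340 and 313 CPM in line 1 and 234 and 226 CPM in line 2. Labelled 2iL, the genotypes were also apart in summed formative markers (595 to 909 CPM in Mta123KO), neural markers (35.9 to 45.3 CPM against 83.3 to 109 CPM in Control), mesendoderm markers (9.45 to 14.8 CPM against 3.49 to 5.28 CPM) and fibroblast markers (6.50 to 7.77 CPM against 1.47 to 2.86 CPM). Labelled 48 h they were apart in formative markers (226 to 340 CPM in Mta123KO), primitive endoderm markers (28.1 to 65.4 CPM against 69.2 to 108 CPM), mesendoderm markers (8.42 to 12.0 CPM against 14.2 to 17.3 CPM) and fibroblast markers (2.33 to 5.34 CPM against 1.76 to 2.05 CPM). Gene by gene labelled 2iL, 5 of 8 formative markers were called lower and 1 higher, and 4 of 5 neural markers lower. Of 4 mesendoderm markers tested 1 was called higher, and of 3 fibroblast markers tested all 3. Beside them, 27.1% of all genes were higher and 24.2% lower. The lists labelled 48 h were mixed gene by gene. Primitive endoderm markers had 3 of 7 tested called higher and 2 lower (median log2 difference 0.99, against the direction of their sum). Formative markers had 2 of 7 higher and 1 lower (median 0.10), mesendoderm markers 1 of 4 higher and 1 lower, and fibroblast markers 1 of 2 higher. Of all genes, 26.6% were higher and 23.4% lower. The part of these markers' cells in the FGF values was not tested, and in bulk RNA a change in the share of a cell type and a change in RNA per cell cannot be told apart.

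Fgfr1, the receptor most abundant in ES cells, differed little between groups and more between lines. In libraries labelled 2iL it was 89.8, 93.6, 99.0 and 115 CPM in Control cells and 114, 115, 71.8 and 69.7 CPM in Mta123KO cells. In those labelled 48 h it was 78.1, 69.3, 84.8 and 98.4 CPM and 137, 132, 84.2 and 96.8 CPM. The genotypes overlapped under both labels, with line 1 of Mta123KO above nearly all Control libraries and line 2 within or below them. The difference was -0.09 ± 0.18 log2 labelled 2iL (edgeR adjusted p = 0.71) and 0.46 ± 0.17 log2 labelled 48 h (adjusted p = 0.0496). The latter call was lost on leaving out any 1 of 5 libraries (Control labelled 48 h 1_1, 1_2 or 2_1, or Mta123KO 1_1 or 1_2, adjusted p of 0.094 to 0.14). It was also lost with spike-in scaling (0.28 log2, adjusted p = 0.35). Line by line, Fgfr1 was 0.21 log2 above Control in line 1 (adjusted p = 0.083) and 0.48 log2 below it in line 2 (-0.48, adjusted p = 0.0031) labelled 2iL. Labelled 48 h it was 0.72 log2 above Control in line 1 (adjusted p = 0.00078) and 0.14 log2 above it in line 2 (adjusted p = 0.40), and of the 2 lines set against Control alone the first was called. Between culture labels Fgfr1 was not called in either genotype (-0.25 ± 0.11 log2, adjusted p = 0.070 in Control, and 0.28 ± 0.22 log2, adjusted p = 0.42 in Mta123KO). Without Control labelled 48 h 2_2 the first was -0.34 log2 and was called (adjusted p = 0.013). With the replicate number as a block, which compares libraries of the same line, it was called in both, lower in Control libraries labelled 48 h (-0.26 log2, adjusted p = 0.0016) and higher in those of Mta123KO (0.29 log2, adjusted p = 0.0065). Control line 1 was below line 2 for genes of chromosome 8 as a whole, where Fgfr1 lies, with a median log2 difference over 913 genes of -0.15 labelled 2iL and -0.17 labelled 48 h. In Mta123KO cells, where Fgfr1 was higher in line 1, that median was 0.043 and 0.035. Whether it enters the Fgfr1 values was not tested.

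Fgfr3 was the second member whose genotype difference depended on the culture label. In libraries labelled 2iL it was 1.74, 2.89, 2.36 and 2.35 CPM in Control cells and 3.76, 2.95, 1.58 and 0.968 CPM in Mta123KO cells. Under the 48 h label it was 0.740, 0.867, 0.646 and 1.31 CPM and 3.70, 4.84, 1.88 and 1.97 CPM. The genotypes overlapped under the first label and were separate under the second. The differences were 0.01 ± 0.38 log2 (edgeR adjusted p = 0.99) and 1.81 ± 0.37 log2 (adjusted p = 0.0031), with an interaction of 1.81 ± 0.56 log2 (adjusted p = 0.029). With spike-in scaling the interaction was 1.58 log2 and was not called (adjusted p = 0.067). The first value joined lines of opposite sign, 0.53 log2 for line 1 (adjusted p = 0.051) and -0.86 log2 for line 2 (adjusted p = 0.022). The interaction was lost on leaving out any 1 of 7 of the 16 libraries, with adjusted p of 0.0502 to 0.064. These were Control labelled 2iL 1_2, Control labelled 48 h 1_1, 1_2 and 2_1, Mta123KO labelled 2iL 2_1, and Mta123KO labelled 48 h 1_1 and 1_2. Between labels Fgfr3 fell by 1.38 ± 0.24 log2 in Control cells (adjusted p = 0.00053), and in Mta123KO cells the groups overlapped (0.41 ± 0.47 log2, adjusted p = 0.58).

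Fgfr4 moved like Fgfr2, at far lower levels and with the Mta123KO lines in the other order. In libraries labelled 2iL it was 1.76, 1.85, 1.78 and 1.64 CPM in Control cells and 3.78, 3.17, 7.57 and 6.22 CPM in Mta123KO cells. In libraries labelled 48 h it was 0.969, 0.920, 1.22 and 0.979 CPM and 1.502, 1.47, 1.81 and 1.73 CPM. No Mta123KO library reached down to a Control library of its label, and line 2 was above line 1 under both. The differences were 1.58 ± 0.27 log2 (2.98-fold, edgeR adjusted p = 0.0012) and 0.68 ± 0.17 log2 (1.60-fold, adjusted p = 0.0095). The second was no longer called with spike-in scaling (0.48 log2, adjusted p = 0.22) or in line 1 alone (0.55 log2, adjusted p = 0.057), while line 2 alone was called (0.80 log2, adjusted p = 0.012). Between labels Fgfr4 was lower in libraries labelled 48 h, by 0.77 ± 0.16 log2 in Control cells (adjusted p = 0.0015) and by 1.67 ± 0.28 log2 in Mta123KO cells (adjusted p = 0.0042). The call in Control cells was lost with spike-in scaling (-0.58 log2, adjusted p = 0.069). The interaction of -0.89 ± 0.32 log2 was not called (adjusted p = 0.061). It was called with the replicate number as a block (-0.82 log2, adjusted p = 0.049), by DESeq2 (-0.90 log2, adjusted p = 0.049), and without Mta123KO labelled 2iL 1_1 (-1.01 log2, adjusted p = 0.035) or 1_2 (-1.06 log2, adjusted p = 0.014). Over the interaction as a whole, 2 of 8 members were called, both higher, beside 23.1% of all genes (12.5% higher and 10.6% lower).

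**Figure D2:**
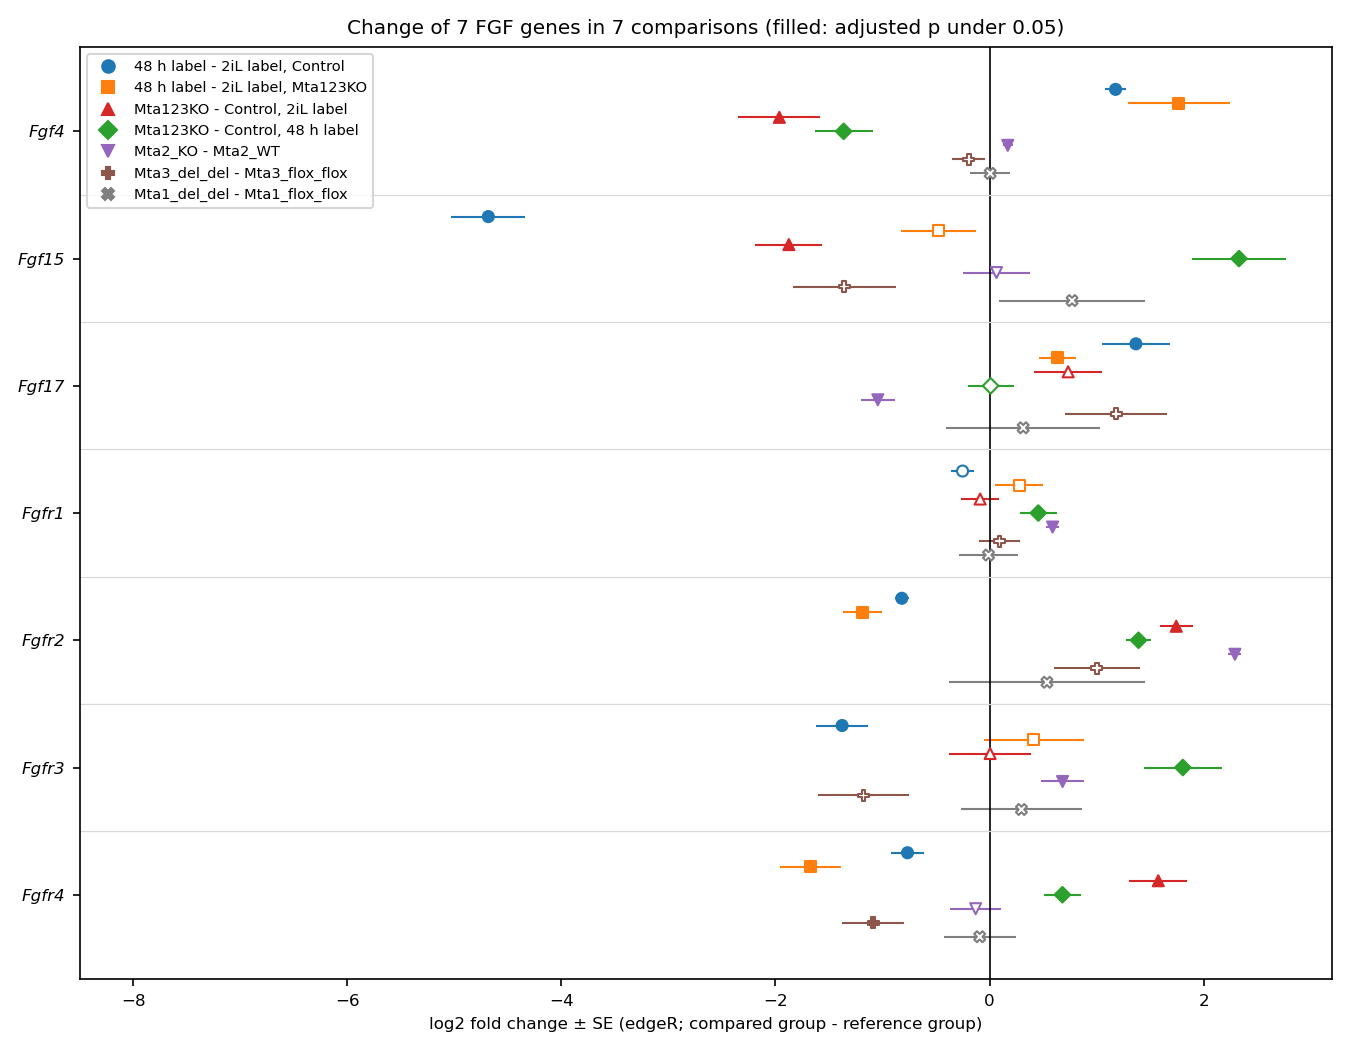
Log2 fold changes (points) with standard errors (bars) from edgeR for 7 FGF genes in 7 comparisons, filled where the adjusted p was under 0.05. Fgf4 and Fgfr2 lay on opposite sides of 0 in the 4 comparisons of the first set, and Fgfr2 reached 2.29 in Mta2_KO.

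The make-up of the receptors per exon length shifted accordingly. Fgfr1 gave 64.7 ± 2.00% (SD, n = 4) of the summed receptor RPKM in Control cells labelled 2iL and 35.0 ± 2.18% in Mta123KO cells, while Fgfr2 gave 29.9 ± 1.80% and 57.7 ± 2.16%. In libraries labelled 48 h Fgfr1 gave 73.4 ± 2.57% and 59.5 ± 2.43%, and Fgfr2 23.0 ± 2.45% and 35.8 ± 2.13%. The ranges of the 2 genotypes did not overlap for either receptor under either label. Fgfr3 and Fgfr4 together were the small remainder, with Fgfr4 at 6.09 ± 3.54% in Mta123KO labelled 2iL, and 10.1% in its highest library. As the 4 shares sum to the whole, a rise of one lowers the others.

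**Figure D3:**
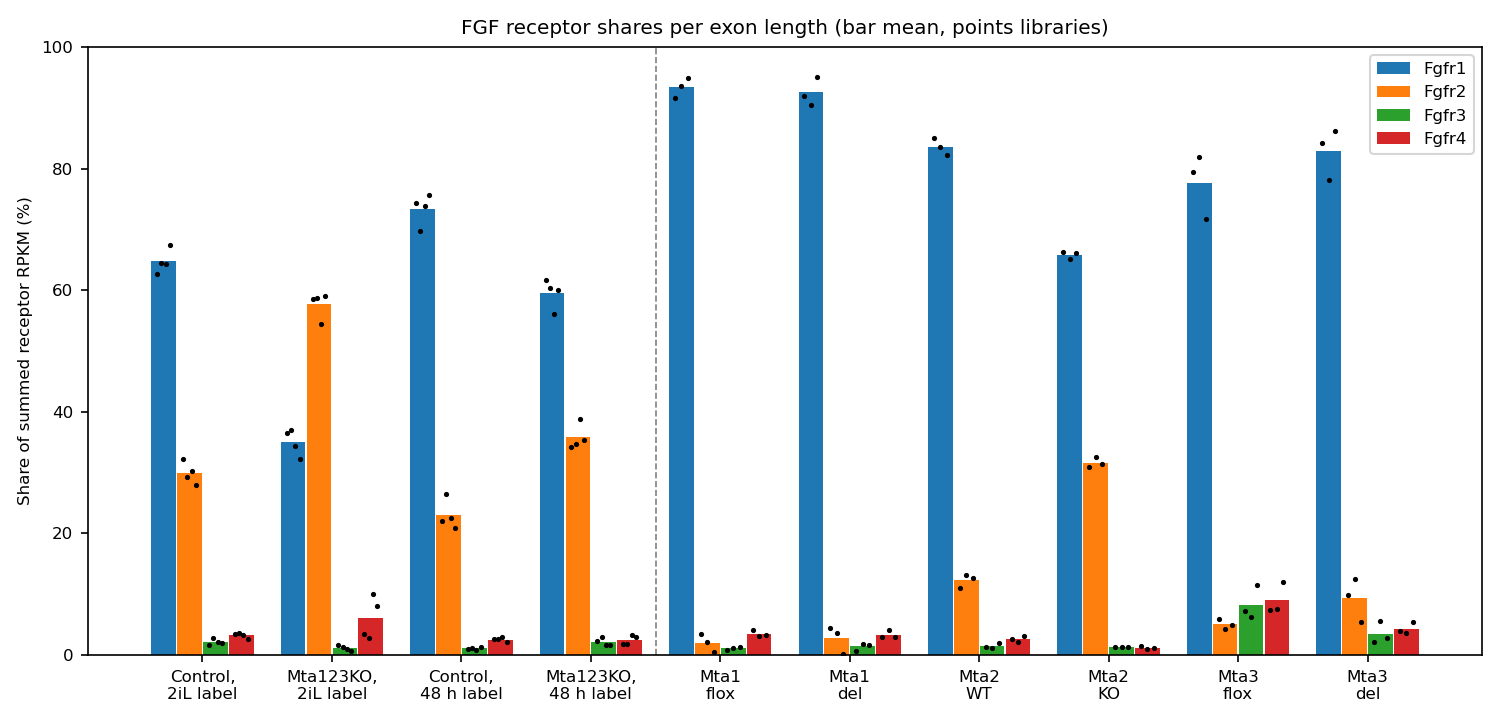
Share of the summed RPKM of the 4 FGF receptors (percent, linear axis from 0) in each of the 10 groups, with bars for group means and points for libraries. Fgfr2 rose from 29.9% to 57.7% in Mta123KO labelled 2iL and from 12.3% to 31.7% in Mta2_KO, and was between 2.04% and 9.31% in the Mta1 and Mta3 groups.

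In the single mutants, edgeR called Fgfr2 in Mta2_KO and in neither of the other two, while DESeq2 called it in Mta3_del_del as well. Fgfr2 stood at 14.8, 16.9 and 15.0 CPM in Mta2_WT and at 76.8, 75.5 and 78.1 CPM in Mta2_KO, a 4.90-fold rise with very tight replicates (2.29 ± 0.06 log2, edgeR adjusted p = 7.8e-09). Fgfr1 was 109, 102 and 92.4 CPM in Mta2_WT and 157, 145 and 157 CPM in Mta2_KO (0.59 ± 0.06 log2, adjusted p = 6.7e-05). Fgf17 was 2.94, 3.04 and 2.90 CPM and then 1.65, 1.40 and 1.24 CPM (-1.04 ± 0.16 log2, adjusted p = 0.00059). None of these 3 genes overlapped between the groups, but the share of all genes without overlap is not given here. Fgf4 was 269, 262 and 265 CPM in Mta2_WT and 297, 314 and 288 CPM in Mta2_KO, a small rise (0.17 ± 0.05 log2, adjusted p = 0.018), and so in the other direction from Mta123KO cells. Fgfr3 was 1.27, 1.04 and 1.66 CPM and 2.13, 2.05 and 2.18 CPM (0.68 ± 0.20 log2, adjusted p = 0.021). In all 5 of 7 tested members were called in Mta2_KO, 4 higher and 1 lower, beside 47.8% of all genes tested (23.5% higher and 24.3% lower). With a log2 difference above 1 in size, 2 were called, beside 11.3% of all genes. Fgf15 (2.62 to 6.47 CPM and 3.28 to 5.13 CPM) and Fgfr4 (0.935 to 1.24 CPM and 0.847 to 1.21 CPM) overlapped and were not called. Leaving out 1 library ended the call of Fgf4 (Mta2_KO 1 or 2, or Mta2_WT 2, adjusted p of 0.055 to 0.059) and of Fgfr3 (Mta2_KO 1 or 3, or Mta2_WT 1 or 2, adjusted p of 0.062 to 0.074). In a single fit of all 18 libraries, which averages the wider spread of the Mta1 and Mta3 groups, Fgfr2 alone was called. Summed trophectoderm markers were 95.6 to 104 CPM in Mta2_WT and 145 to 153 CPM in Mta2_KO, and of 7 tested 2 were higher and 4 lower, beside the 47.8% of all genes called. Other summed markers were also apart. Naive markers were 4979 to 5310 CPM in Mta2_WT and 3878 to 4003 CPM in Mta2_KO, primitive endoderm markers 35.5 to 37.3 and 19.4 to 23.1 CPM, neural markers 31.4 to 39.1 and 66.9 to 75.2 CPM, mesendoderm markers 24.9 to 28.8 and 15.1 to 16.2 CPM, and formative markers 229 to 266 and 209 to 217 CPM. Gene by gene, these lists were mixed. Neural markers had 2 of 5 tested called higher and 2 lower (median log2 difference -0.07). Mesendoderm markers had 1 of 4 higher and 2 lower, and primitive endoderm markers 2 of 7 higher and 4 lower. Formative markers had 1 of 7 higher and 2 lower, and naive markers 2 of 11 higher and 7 lower. Of all genes, 23.5% were higher and 24.3% lower. The part of these markers in the FGF values was not tested.

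Mta1_del_del and its parent were not told apart for any member. With edgeR, 0 of 7 members and 0% of all genes tested were called, with 50 genes at an unadjusted p under 0.05. DESeq2 also called none, with 88 genes at an unadjusted p under 0.05. With the replicate number as a block edgeR called 0 genes, with 468 at an unadjusted p under 0.05. In the main edgeR fit the deleted gene Mta1 itself was not called, at a mean of 84.3 CPM in the parent and 43.1 CPM in the mutant. A change of that size could thus be missed here. The replicates of this pair were far apart. Fgfr2 ran from 0.732 to 3.19 CPM in Mta1_flox_flox and from 0.332 to 5.32 CPM in Mta1_del_del, and Fgf17 from 2.48 to 9.15 CPM and from 1.70 to 12.2 CPM. Fgf4 was 260, 221 and 161 CPM in the parent and 239.7, 200.2 and 208 CPM in the mutant (0.01 ± 0.19 log2).

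In Mta3_del_del, 1 of 7 members was called, beside 16.2% of all genes (8.32% higher and 7.84% lower). It was Fgfr4, at 2.51, 3.31 and 4.37 CPM in Mta3_flox_flox and 1.88, 1.55 and 1.57 CPM in Mta3_del_del, lower by 1.09 ± 0.29 log2 (2.12-fold, edgeR adjusted p = 0.039) and without overlap. This call was lost when any 1 of the 6 libraries was left out (adjusted p of 0.051 to 0.12). Fgfr3 (4.95, 5.44 and 8.39 CPM against 2.02, 4.85 and 1.66 CPM) and Fgf15 (1.77, 1.95 and 0.858 CPM against 0.588, 0.854 and 0.393 CPM) were also without overlap and lower, at -1.18 ± 0.42 and -1.36 ± 0.48 log2, but missed the threshold (adjusted p of 0.084 and 0.081). Fgfr2 was 5.84, 5.44 and 5.15 CPM and then 13.7, 15.6 and 4.63 CPM (1.003 ± 0.40 log2, adjusted p = 0.11). Without Mta3_del_del 3, whose Fgfr2 lay below all its parents, the difference was 1.37 log2 and was called (adjusted p = 0.038). Without Mta3_del_del 2, Fgf17 (1.61 log2, adjusted p = 0.0095) and Fgfr3 (-1.82 log2, adjusted p = 0.011) were called. DESeq2 called 4 members, Fgf17, Fgfr2, Fgfr3 and Fgfr4, beside 3499 of 16067 genes tested, where edgeR had called 2508 of 15522. Summed fibroblast markers were 11.5 to 57.7 CPM in Mta3_flox_flox and 5.66 to 6.44 CPM in Mta3_del_del, and 2 of the 4 tested were called lower, beside 7.84% of all genes. Naive markers (3428 to 4257 and 4383 to 5192 CPM) and mesendoderm markers (9.75 to 13.8 and 15.9 to 27.4 CPM) were also apart in their sums. Gene by gene, 1 of 11 naive markers was called higher and 0 of 4 mesendoderm markers tested were called, beside 16.2% of all genes. The part of these 3 marker lists in the FGF values was not tested.

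The effects of the 3 single mutants were compared with each other in one edgeR fit of all 18 libraries, a comparison added after the data had been seen. None of the 7 members tested passed the threshold in any of the 3 pairs of mutants. The Fgfr2 effect of Mta2_KO exceeded that of Mta3_del_del by 1.25 ± 0.80 log2 (adjusted p = 0.30) and that of Mta1_del_del by 1.75 ± 0.85 log2 (adjusted p = 0.35). The nearest to the threshold was Fgfr3, 1.82 ± 0.62 log2 between Mta2_KO and Mta3_del_del (adjusted p = 0.056). The rise of Fgfr2 is therefore called in Mta2_KO and in Mta123KO cells but is not shown to be particular to Mta2 among the single mutants. The first and second sets were normalized apart and were not compared by test.

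**Figure D4:**
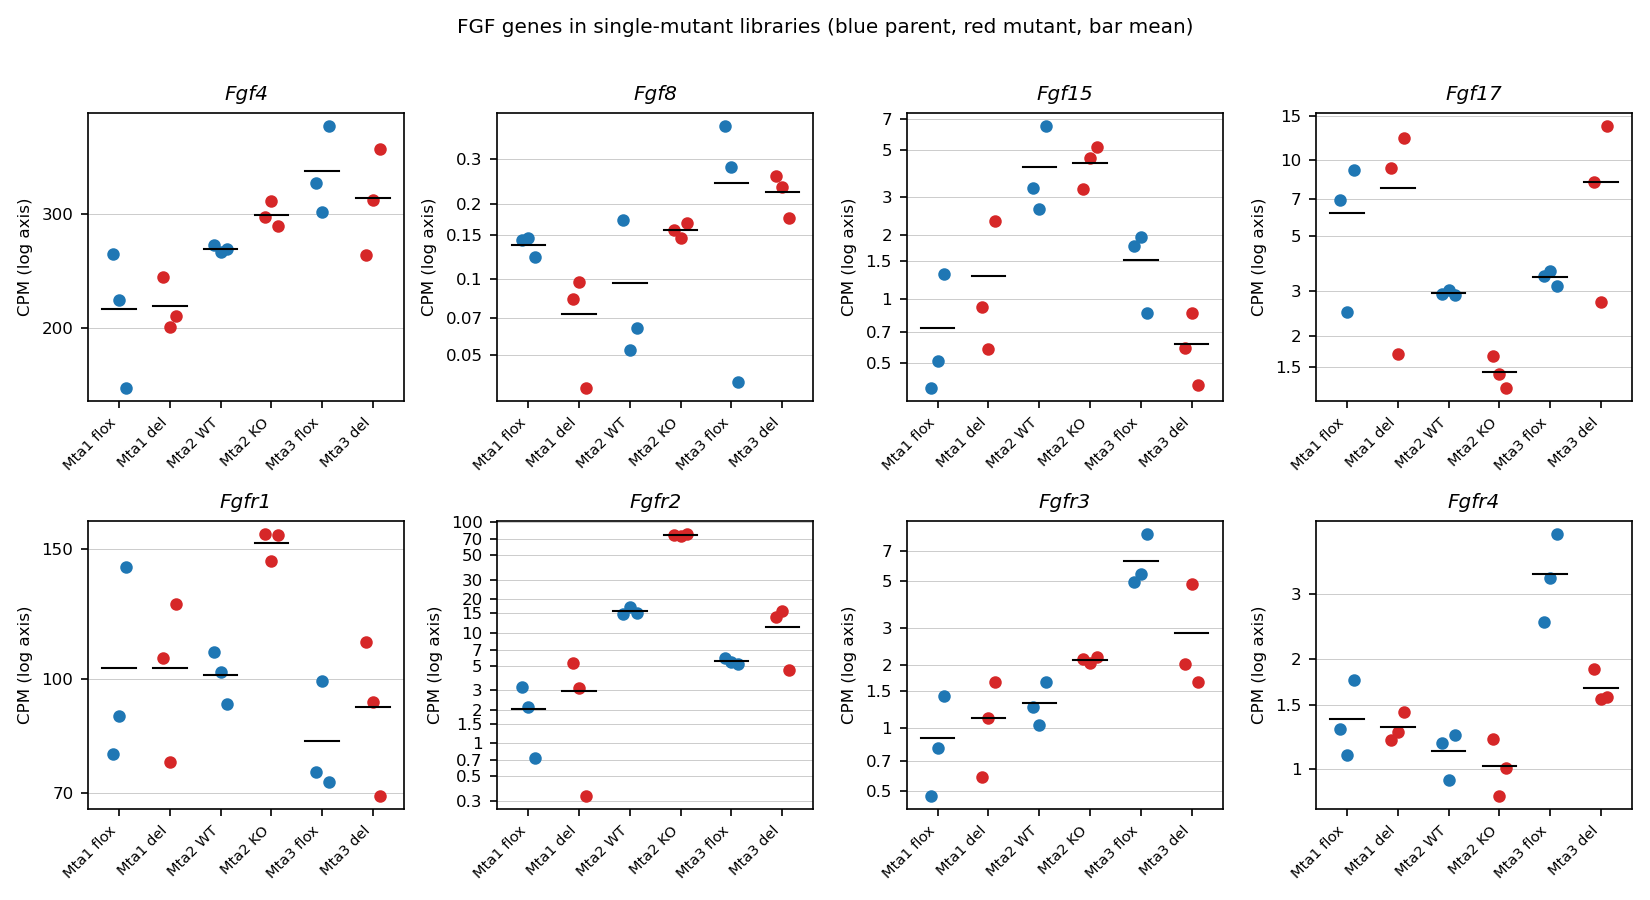
CPM of the 8 FGF genes (log axis) in the 18 libraries of the single mutants (red) and their parents (blue), with bars for group means. The 3 Mta2_KO libraries lay between 75.5 and 78.1 CPM for Fgfr2, above all other libraries of the set, and the replicates of the Mta1 pair were spread widely for Fgf17 and Fgfr2.

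Genes that answer to FGF and ERK signalling, or that restrain it, were read in a list of 16, all tested. In Control cells 13 of them were lower and 1 was higher in libraries labelled 48 h (median log2 difference -1.05 beside 0.01 over all genes), where 29% of all genes were lower and 29.5% higher. Dusp4 and Dusp6, phosphatases that switch ERK off again, were lower (log2 differences -4.23 ± 0.11 and -3.61 ± 0.20, edgeR adjusted p = 7.8e-10 and 6.7e-08), from 41.1 to 2.16 CPM and from 169 to 13.7 CPM. Egr1, an immediate early transcription factor, fell by 3.30 ± 0.67 log2 (adjusted p = 0.0015). The level of Fgf4 itself went the other way, being higher where these genes were lower. The culture labels are in doubt, as said above. If they were exchanged, these genes would be higher, and Fgf4 lower, in medium without the inhibitors. In Mta123KO cells 10 were lower and 2 higher between the same labels (median -0.69), beside 10% and 12.4% of all genes.

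Between genotypes the list split. In libraries labelled 2iL, 8 were lower and 4 higher in Mta123KO (median -0.32 beside 0.01), where 51.3% of all genes were called (24.2% lower and 27.1% higher). Dusp6 fell from 169 to 75.7 CPM (-1.15 ± 0.21 log2, adjusted p = 0.0018) and Il17rd, a membrane antagonist of FGF receptors, from 62.2 to 27.6 CPM (-1.15 ± 0.11 log2, adjusted p = 6.0e-05). Fos and Ier3, immediate early genes that other signals also induce, rose by 2.88 ± 0.48 and 1.54 ± 0.17 log2 (adjusted p = 0.0011 and 0.00011). In libraries labelled 48 h, 5 were lower and 6 higher (median 0.17), beside 23.4% and 26.6% of all genes. The FGF target Etv4, an ETS transcription factor, fell from 39.9 to 7.27 CPM (-2.45 ± 0.32 log2, adjusted p = 0.00027) and Dusp6 from 13.7 to 3.03 CPM (-2.18 ± 0.37 log2, adjusted p = 0.0012). Fos rose by 3.04 ± 0.46 log2 (adjusted p = 0.00059), and Egr1 from 1.29 to 14.8 CPM (3.57 ± 1.18 log2, adjusted p = 0.031). In Mta2_KO, where Fgfr1 and Fgfr2 were higher, 9 of the 16 were lower and 1 was higher (median -0.54 beside 0.00), where 24.3% of all genes were lower and 23.5% higher. The feedback inhibitors Spry1, Spry2 and Spry4 fell by 1.81 ± 0.10, 1.61 ± 0.05 and 1.58 ± 0.26 log2 (adjusted p = 6.0e-07, 1.7e-08 and 0.00081), with Spry2 at 114 and 37.7 CPM. In Mta3_del_del 3 were lower and 2 higher, beside 7.84% and 8.32% of all genes, and in Mta1_del_del none of 16 was called.

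**Figure D5:**
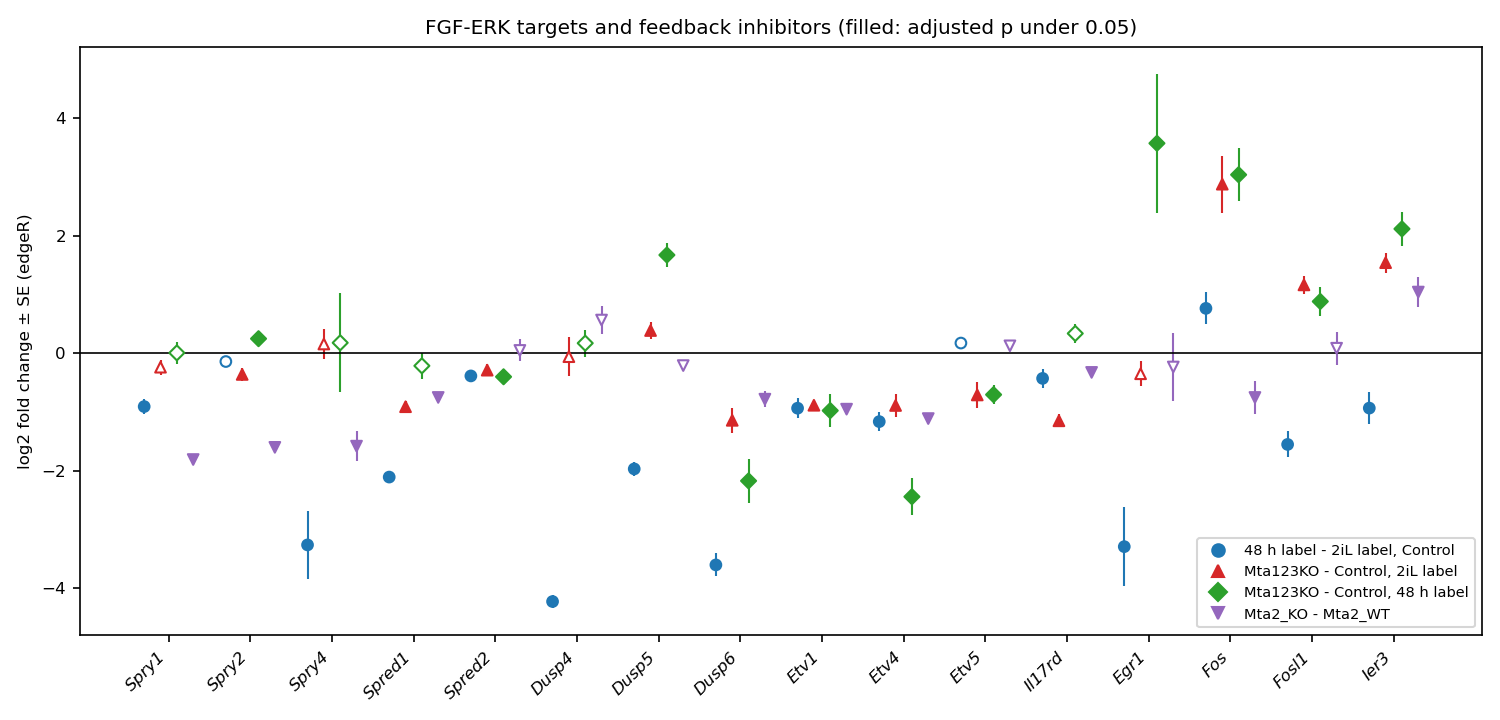
Log2 fold changes (points) with standard errors (bars) from edgeR for 16 FGF-ERK targets and feedback inhibitors in 4 comparisons, filled where the adjusted p was under 0.05. Dusp6 was lower in Mta123KO under both labels (-1.15 and -2.18), while Fos was higher in both (2.88 and 3.04).

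Co-receptors and heparan sulphate genes, which present FGFs to their receptors, were read in a list of 27. In Mta123KO cells 13 were higher and 8 lower labelled 2iL (median 0.36), and 13 higher and 5 lower labelled 48 h (median 0.55), where 51.3% and 50% of all genes were called. Sdc4, a heparan sulphate proteoglycan, rose from 30.3 to 235 CPM labelled 2iL (2.97 ± 0.19 log2, adjusted p = 8.0e-06), and Fgfbp1, a carrier protein for FGFs, from 4.79 to 44.9 CPM (3.25 ± 0.32 log2, adjusted p = 6.3e-05). Gpc3, a glypican, fell from 22.0 to 1.95 CPM labelled 2iL (-3.48 ± 0.19 log2, adjusted p = 3.9e-06) and from 14.2 to 0.913 CPM labelled 48 h (-3.94 ± 0.27 log2, adjusted p = 8.4e-06). In Mta2_KO 9 were higher and 6 lower, beside 23.5% and 24.3% of all genes, with Sdc4 at 127 and 274 CPM (1.10 ± 0.04 log2, adjusted p = 6.7e-08) and Sdc2 at 92.0 and 36.6 CPM (-1.33 ± 0.04 log2, adjusted p = 2.0e-08).

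Of 19 adaptors and kinases between the receptors and ERK, 6 were higher and 6 lower in Mta123KO labelled 2iL, and 7 higher and 3 lower labelled 48 h, near the 51.3% and 50% of all genes called. The receptor substrates Frs2 and Frs3 rose under both labels, Frs2 from 18.2 to 37.7 CPM and from 19.9 to 56.7 CPM (1.07 ± 0.27 and 1.52 ± 0.36 log2, adjusted p = 0.0083 and 0.0065). Frs3 rose by 1.21 ± 0.13 and 1.18 ± 0.11 log2 (adjusted p = 0.000102 and 3.81e-05). The adaptor Shc1 fell under both (-0.42 ± 0.09 and -0.69 ± 0.07 log2, adjusted p = 0.0035 and 8.4e-05). Braf, a kinase that activates MEK, fell in Mta2_KO from 129 to 62.7 CPM (-1.04 ± 0.04 log2, adjusted p = 1.3e-07) and in Mta123KO labelled 2iL from 126 to 85.5 CPM (-0.54 ± 0.10 log2, adjusted p = 0.0020).

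Among 18 other FGF genes, 7 to 13 passed the count filter in a comparison. Fgf3, the neighbour of Fgf4 and Fgf15, was higher in Control libraries labelled 48 h (0.917 and 2.84 CPM, 1.64 ± 0.21 log2, edgeR adjusted p = 5.7e-05). It was lower in Mta123KO labelled 48 h (1.06 CPM, -1.42 ± 0.20 log2, adjusted p = 0.00044), as Fgf4 was, while Fgf15 went the other way in both. Fgf5, a marker of the formative state, fell from 3.01 to 0.697 CPM in Mta123KO labelled 2iL (-2.10 ± 0.54 log2, adjusted p = 0.0097). Fgf10 fell from 2.97 to 0.260 CPM in Mta123KO labelled 48 h (-3.51 ± 0.37 log2, adjusted p = 8.5e-05). In Mta2_KO the ligands Fgf1 and Fgf7 fell from 12.1 to 0.667 CPM and from 11.9 to 0.703 CPM (-4.20 ± 0.15 and -4.06 ± 0.15 log2, adjusted p = 4.9e-08 and 4.7e-08), and both were also called lower in Mta3_del_del (-3.79 ± 0.94 and -2.90 ± 0.65 log2, adjusted p = 0.033 and 0.026). The Mta3 parents with fibroblast markers noted above were the reference in the latter.

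Over the 16 libraries of the first set, and among 12508 genes of at least 5 CPM on average, the genes most like each member in log2 CPM were found by Pearson's r, as a description of 4 groups that share lines and treatments. For Fgf4 they were Gm20939 (r = 0.99), Kdm5b (0.98) and Acp6 (0.98), for Fgfr2 Pmp22 (0.99), Fbxo34 (0.99) and Spag1 (0.98), and for Fgfr4 Efr3b (0.98), Prdx6 (0.96) and Arhgef4 (0.95). For Fgfr1 the first was Gm16159 (0.93), the opposite-strand gene with which it shares exon bases, followed by Mfn2 (0.91) and Rps6ka3 (0.91). For Fgf15 they were Fam171b (0.97), Tfdp2 (0.96) and Gm26735 (0.96), for Fgf17 Gm28373 (0.93), Ercc4 (0.92) and Itpk1 (0.91), and for Fgfr3 Actb (0.94), Cnbd2 (0.93) and Glipr2 (0.93).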

How the data were processed

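RNA was measured by RNA-seq in 34 libraries, made with either a NEXTflex directional or a SMARTer Pico stranded kit (which library used which is not given in the sources used here). The authors trimmed reads with Trim Galore! 0.4.1, aligned them to GRCm38 with Tophat 2.1.0, counted reads per Ensembl 86 gene with featureCounts 1.5.0 and tested with DESeq2 1.14.1. The deposited values are raw counts per gene. Groups follow the labels. The members and gene lists were chosen with earlier results of these data known.

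Each comparison was fitted over all genes with edgeR 4.0.16 in R 4.3.3 (TMM scaling, filterByExpr, quasi-likelihood test) using only its own groups. The interaction used all 16 libraries. CPM used total gene counts multiplied by TMM factors computed once per set, and RPKM divided CPM by the union of GENCODE exons. Spike-in rows were kept out of library sizes. The code was tested on simulated data.

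All 8 members, the MTA genes and Fgf5 are named whatever their values. From each pathway list and comparison, up to 3 called genes per direction with the largest fold change and at least 1 CPM in the higher group could be named, and the 3 genes most like each member.

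Same-numbered libraries deviated together between culture labels (correlation 0.27 to 0.34 in Control and 0.55 to 0.59 in Mta123KO) and in the Mta1 pair (0.43 to 0.70). Between genotypes they did not (-0.25 to -0.03 labelled 2iL and -0.10 to 0.03 labelled 48 h). In the Mta2 and Mta3 pairs the values were mixed (-0.19 to 0.31 and -0.13 to 0.34). The main fits used no replicate block in any comparison, so their p-values are unpaired ones. With the block, 7 members instead of 6 were called between labels in Control and 5 instead of 4 in Mta123KO. Among all genes, 13565 instead of 12419 were called in Control and 9144 instead of 4817 in Mta123KO. In the Mta1 pair 0 genes were called in either fit. The replicate block was 1 of the alternatives, which also covered DESeq2 1.42.0, RLE scaling, no count filter, a fold threshold, 1 fit per set, spike-in scaling, summed lines, each line alone and leaving out each library.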

Additional observations from a re-analysis of the deposited data

Results flagged for a closer look

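The genotype difference of Fgf15 differed between the culture labels by 4.22 on the log2 scale (edgeR interaction, adjusted p = 5.4e-05), from lower in Mta123KO labelled 2iL to higher labelled 48 h, without overlap in 4 of 4 libraries each way. Gm26793, which shares exon bases with Fgf15 on the opposite strand, had an interaction of 3.75 ± 0.63 log2 (adjusted p = 0.00053). The genotype difference of Fgfr3 differed by 1.81 (adjusted p = 0.029), and this interaction was lost on leaving out any 1 of 7 libraries. In Fgf8, 1 Control library labelled 48 h (replicate 1_2, 0.131 CPM, 5 counts) stood apart from the other three. It was the 1 such group among 32 groups of 4 libraries examined, where chance gives about 1 in 20.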

How the results depend on the processing

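Summing the libraries of a line changed most. Between labels in Mta123KO, 0 members instead of 4 were called, beside 0 instead of 4817 genes in all. Between genotypes there were 1 instead of 4 labelled 2iL, beside 3758 instead of 11115 genes. Labelled 48 h there were 2 instead of 6, beside 4085 instead of 10548 genes. In the interaction there was 1 instead of 2, beside 710 instead of 5306 genes. The summed fits did not pair lines across labels. Spike-in scaling moved the median of all genes by 0.18 between labels in Control, -0.18 between genotypes labelled 48 h and -0.22 in the interaction, where it left 1 member called. In Mta2_KO, 2 members were called with a fold threshold and 1 in a single fit of 18 libraries, instead of 5. In Mta3_del_del, DESeq2 called 4 instead of 1, beside 3499 instead of 2508 genes in all. On leaving out 1 library the counts were 6 to 8 between labels in Control, 2 to 4 in Mta123KO, 4 to 5 and 5 to 6 between genotypes labelled 2iL and 48 h, 1 to 3 in the interaction, 3 to 5 in Mta2_KO and 0 to 2 in Mta3_del_del. The causes were not tested.

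Signs that turned were of members not called. Fgfr3 between genotypes labelled 2iL was -0.011 (DESeq2), -0.00078 (RLE), -0.027 (no filter), -0.14 (replicate block), -0.012 (single fit) and -0.0060 (lines summed), and -0.86 in line 2 alone, which was called. Fgfr1 there was 0.21 in line 1 alone. Fgf17 labelled 48 h was -0.0078 (no filter), -0.17 (spike-in and line 1 alone) and -0.0058 (lines summed). Fgfr1 in Mta1_del_del was 0.012 (block) and 0.0018 (single fit). Leaving out 1 library gave -0.33 to 0.25 for Fgfr3 and -0.21 to 0.019 for Fgfr1 labelled 2iL, -0.13 to 0.16 for Fgf17 labelled 48 h, -0.19 to 0.53 for Fgf15 in Mta2_KO, and -0.056 to 0.27 for Fgfr1 in Mta3_del_del. In Mta1_del_del it gave -0.16 to 0.15 for Fgf4, -0.19 to 0.79 for Fgf17, -0.19 to 0.29 for Fgfr1, -0.19 to 1.07 for Fgfr2, -0.10 to 0.82 for Fgfr3 and -0.22 to 0.12 for Fgfr4.

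Where numbers did not clearly pair the libraries, the replicate block called 4, 5, 5 and 1 members between genotypes labelled 2iL and 48 h, in Mta2_KO and in Mta3_del_del. It ended the calls of Fgfr1 labelled 48 h (adjusted p = 0.11) and of Fgfr4 in Mta3_del_del (0.058), and called Fgf15 there (0.048). Of all values of single genes under the alternatives, 752 kept direction and call, 66 lost and 18 gained a call, and 36 turned. Depth limits Fgf8, with at most 15 counts in the first set.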
